A study of Arabidopsis thaliana with 12 samples.

Results

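The beta carbonic anhydrases BCA1 to BCA6 and the phosphoenolpyruvate (PEP) carboxylases PPC1 to PPC4 of Arabidopsis thaliana are described here, 10 genes of the 27416 coding targets listed in each library. They were picked by locus, and all 10 were found: BCA1 (AT3G01500), BCA2 (AT5G14740), BCA3 (AT1G23730), BCA4 (AT1G70410), BCA5 (AT4G33580), BCA6 (AT1G58180), PPC1 (AT1G53310), PPC2 (AT2G42600), PPC3 (AT3G14940) and PPC4 (AT1G68750). The RNA-seq libraries came from Columbia plants of 2 genotypes, wild type (WT) and a mutant of the phosphoserine phosphatase (psp1), each divided into aerial part and roots. This gives 4 groups of 3 libraries: WT aerial part, WT roots, psp1 aerial part and psp1 roots. All plants shared 1 regime, with growth on upright plates of Murashige and Skoog agar at reduced strength, 16 h of light and 8 h of dark after stratification of the seed at 4 °C, and harvest at the end of the night. No other treatment, plant age, psp1 allele or position of the lesion is given in the labels. The titles of all psp1 libraries begin with HS where those of WT begin with WT, and the titles do not explain HS.

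Carbonic anhydrases interconvert carbon dioxide and bicarbonate, and PEP carboxylase joins bicarbonate to PEP to make oxaloacetate, which is the precursor of malate and of the aspartate family of amino acids. In leaves the beta carbonic anhydrases are abundant soluble proteins, and some of them take part in the response of stomata to carbon dioxide. The plant-type PEP carboxylases PPC1, PPC2 and PPC3 are activated when a PEP carboxylase kinase phosphorylates a serine near the amino end, which makes them less sensitive to inhibition by malate. PPC4 is the bacterial-type enzyme and lacks that site.

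The coding sequences show this difference, and it is printed because it divides the PPC genes into the classes used below. Around the phosphorylated serine, whose codon is in capitals, the RefSeq annotation of TAIR10.1 gives these stretches, 5′ to 3′, on chromosomes 1, 2 and 3 in that order.
PPC1: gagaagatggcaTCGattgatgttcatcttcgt
PPC2: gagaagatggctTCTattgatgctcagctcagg
PPC3: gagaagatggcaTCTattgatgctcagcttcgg
No such stretch was found near the start of the PPC4 coding sequence, the only part searched. The last 10 codons are shown next, with the codon in capitals that reads CAA, for glutamine, in the plant-type genes and AGA, for arginine, in PPC4 on chromosome 1.
PPC1: ggtattgctgctggtctaCAAaacaccggt
PPC2: ggtatcgctgctggtatgCAAaacaccggt
PPC3: ggtattgctgcaggattgCAAaacaccggt
PPC4: ggtattgctgcaggaatgAGAaataccggt
In TAIR10.1, BCA3 lies at chr1:8395466-8398387 on the plus strand with 8 coding exons, PPC3 at chr3:5025184-5029886 on the plus strand with 10, and PPC4 at chr1:25822716-25828147 on the minus strand with 20. Over the aligned bases of the coding sequences, with gaps left out, PPC1 and PPC3 were the closest PPC pair, with 85.6% identity. PPC4 shared 63.1% to 64.2% with the others, over 2645 to 2671 aligned bases of its 3099. Among the carbonic anhydrases BCA1 and BCA2 shared 81.5%, and BCA3 and BCA4 78.0%. The 31-base words of the 10 coding sequences were searched in the 25787 targets, of 27416, whose annotated coding sequence had the listed length. At most 2.66% of the words of any of the 10 occurred in another of these, so few reads could be divided between relatives among them. The remaining targets were not searched.

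The libraries held 3627193 to 9590308 estimated counts. The libraries labelled psp1 were the shallower ones in both organs, with at most 5873935 against at least 7302386 in WT. PSP1, the gene named as mutated, had a TPM of 87.4, 75.7 and 60.5 in the WT aerial libraries and of 478, 355 and 283 in those labelled psp1, a log2 fold change of 2.29 ± 0.26 (SE, n = 3 per group; edgeR exact test, adjusted p = 1.60e-22), not called for PSP1 on log2(TPM + 1) (limma adjusted p = 0.0137). In roots the libraries labelled psp1 read 144, 158 and 182 against 198, 188 and 168, a log2 fold change of -0.40 ± 0.13 that was not called (edgeR adjusted p = 0.0275). The PSP1 transcript was therefore higher, not lower, in the aerial libraries labelled psp1, and without the lesion's position its level cannot check the labels; the genotype below is that of the labels. Leaf markers summed to 25684 to 38998 TPM in aerial libraries and 377 to 636 in roots, root markers to 165 to 200 and 2044 to 3451. Most of the root sum is PYK10, at 163 to 198 TPM in aerial libraries and 1951 to 3339 in roots. By calls between organs, 6 of 6 root markers tested were higher in WT roots, and 4 of 5 in psp1 roots. CASP2 overlapped between the psp1 organs (2.38 to 8.23 TPM in the aerial part, 2.86 to 9.17 in roots). Guard cell markers were near 0 in roots, at most 0.981 TPM summed, and flower and seed markers summed to at most 2.65 in any library.

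TPM (a transcript abundance scaled by target length and by the library sum) is used for levels, and fold changes come from edgeR's exact test on counts with TMM scaling. A gene was called at a Benjamini-Hochberg adjusted p under 0.01 over all genes tested. "Rose" and "fell" are used for called genes alone. Since the genes were chosen with results of these libraries known, a call states a gene's position in the fit over all genes and is no independent evidence for choosing it. PPC4 did not pass the filter on low counts in these fits, so 9 of the 10 were tested in each comparison. In bulk tissue, fewer cells of a type and less RNA per cell cannot be told apart.

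**Figure D1:**
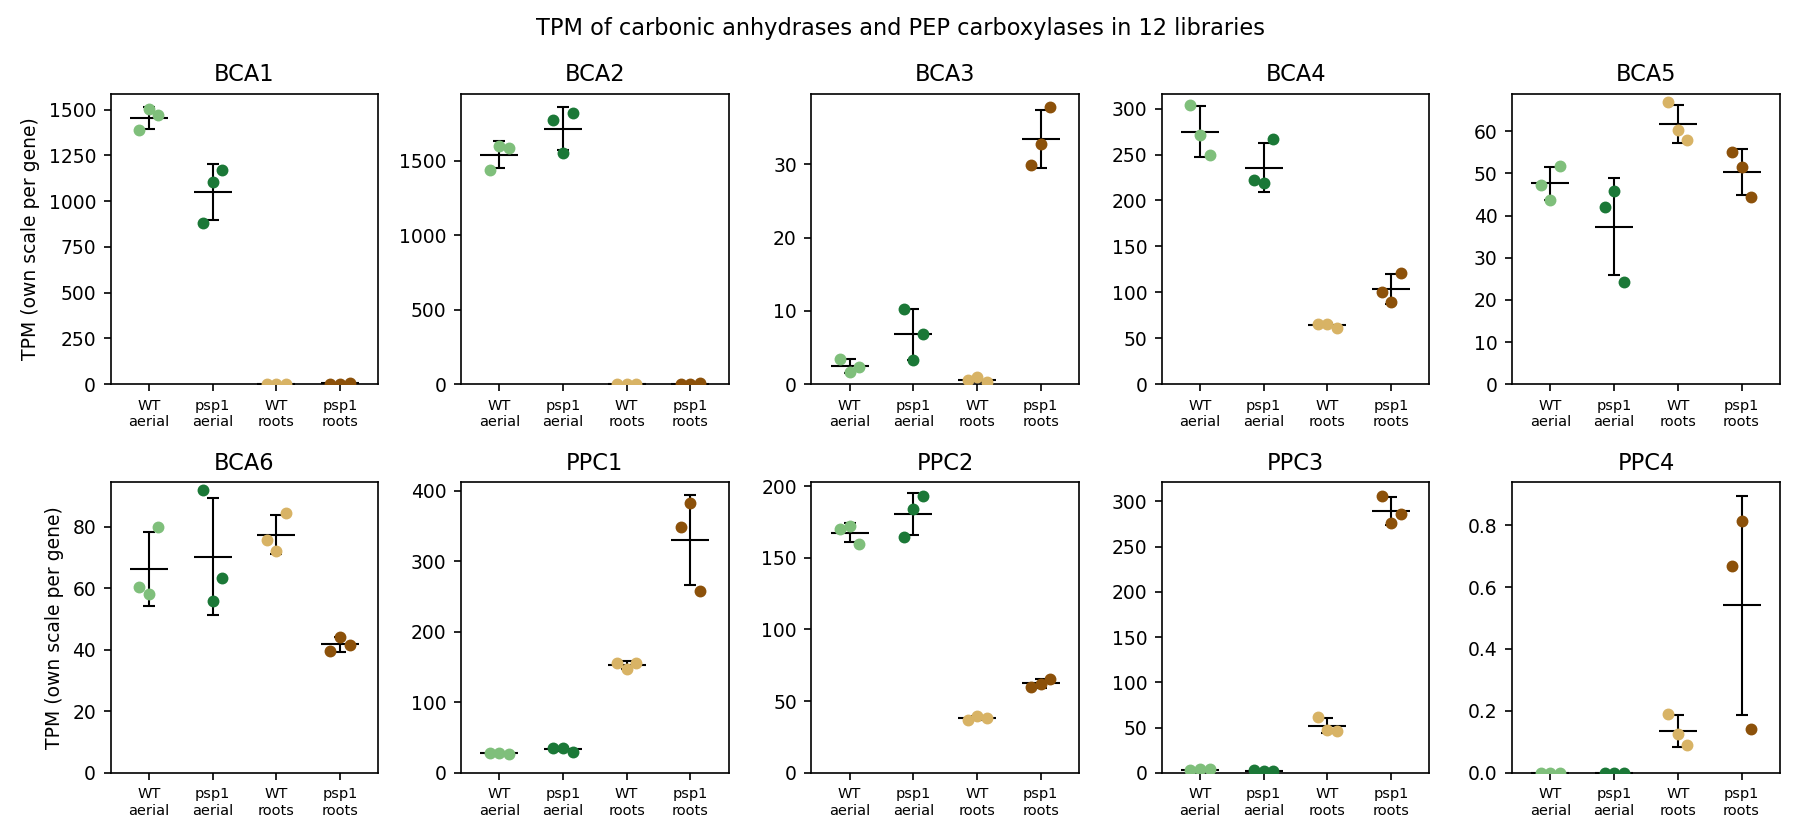
TPM (y axis, linear from 0, own scale per gene) of the 10 genes in the 4 groups; points are libraries, bars are the mean ± SD of 3. BCA3 and PPC3 in psp1 roots, at 29.8 to 37.8 and 276 to 306, stand above all other groups.

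In roots, the psp1 libraries held more BCA3, PPC3, PPC1 and PPC2 transcript and less BCA6 than WT. In all, 4 of the 9 tested genes rose and 1 fell; over all 17793 genes tested, 17.8% were called, 8.72% higher and 9.10% lower. The libraries of both groups did not overlap, on TMM-scaled log2 counts per library size, for 7 of the 9, beside 39.8% of all genes. The median log2 fold change of the 9 was 0.51, beside 0.01 over all genes. The PPC sum was 243 ± 10.7 TPM in WT and 682 ± 62.5 in psp1, and the BCA sum 209 ± 3.55 and 237 ± 18.5 (SD, n = 3 per group; a description, with no test).

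BCA3, a cytosolic carbonic anhydrase, had the largest fold change of the 9. Its TPM was 0.570, 0.935 and 0.296 in WT roots and 29.8, 32.7 and 37.8 in psp1 roots. Every psp1 root library lay far above every WT root library. The fold change was 46.6, or 5.54 ± 0.29 on the log2 scale (SE, n = 3 per group; edgeR exact test, adjusted p = 1.68e-41), the 19th smallest p of all genes tested. The WT level rested on 11 counts in 3 libraries, against 326 in psp1. The SE comes from log2 CPM with a prior count of 2, which narrows the spread of such low counts, so it can understate the error. On log2(TPM + 1), which understates the change of low genes, the difference for BCA3 was 4.44. BCA3 made up 0.289% ± 0.159 of the BCA sum in WT roots and 14.1% ± 0.953 in psp1 roots (SD, n = 3). Its ratio to BCA4, the closest relative, was 0.00480 to 0.0143 in WT root libraries and 0.297 to 0.366 in psp1 root libraries.

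PPC3, a plant-type enzyme known for its expression in roots, stood at 61.6, 47.5 and 46.7 TPM in WT roots. The psp1 root libraries read 306, 276 and 286, again with no overlap. PPC3 rose 4.83-fold, a log2 fold change of 2.27 ± 0.15 (SE, n = 3 per group; edgeR exact test, adjusted p = 3.01e-44), the 17th smallest p of all genes tested. It took 21.3% ± 2.54 of the PPC sum in WT roots and 42.6% ± 4.30 in psp1 roots. Within a library the PPC3 to PPC1 ratio, which does not depend on library scaling, was 0.299 to 0.395 in WT roots and 0.721 to 1.11 in psp1 roots.

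PPC1, with the highest mean PPC level in roots of both genotypes, though below PPC3 in psp1 root replicate 3, read 156, 147 and 156 TPM in WT and 349, 382 and 258 in psp1. The lowest psp1 library was 258, still above every WT library. It rose by a log2 fold change of 0.90 ± 0.15 (SE, n = 3 per group; edgeR exact test, adjusted p = 1.05e-07). PPC2, the main leaf isoform, read 36.8, 39.3 and 38.0 against 59.8, 61.9 and 65.7 TPM. It rose by 0.51 ± 0.06 (SE, n = 3 per group; edgeR exact test, adjusted p = 0.000804), a call that was lost without WT root replicate 1 (edgeR adjusted p = 0.0110).

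BCA6, the mitochondrial carbonic anhydrase, was the only one of the 9 called lower. It read 75.6, 72.3 and 84.6 TPM in WT roots and 39.5, 44.2 and 41.5 in psp1 roots, with no overlap. The log2 fold change was -1.10 ± 0.08 (SE, n = 3 per group; edgeR exact test, adjusted p = 4.54e-10). Its share of the BCA sum was 37.1% ± 2.65 in WT roots and 17.7% ± 1.91 in psp1 roots.

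The other 4 tested genes were not called in roots. BCA4, found at the plasma membrane and in the cytosol, read 66.0, 65.1 and 61.7 TPM in WT and 100.4, 89.5 and 121 in psp1, a log2 fold change of 0.49 ± 0.16 (edgeR adjusted p = 0.0174); without psp1 root replicate 2 it was called (edgeR adjusted p = 0.00401). BCA5, a plastid enzyme, read 66.8, 60.4 and 58.0 against 55.1, 51.5 and 44.4, a log2 fold change of -0.50 ± 0.11 (edgeR adjusted p = 0.0119). The leaf enzymes BCA1 and BCA2 were near the floor of the roots, at 0.910 to 7.55 and 1.102 to 5.42 TPM over the 6 root libraries. BCA2 had a log2 fold change of 0.01 ± 0.75, which was -1.01 without psp1 root replicate 3, and BCA1 0.78 ± 0.64 (edgeR adjusted p = 0.293). That replicate had the highest BCA1 and BCA2 of the root libraries. The 9 leaf markers, given by name here after their values were seen, did not move together in it. RBCS1A, RBCS2B, LHCB1.1 and PSBO1 had their highest root level there (81.6, 16.2, 34.03 and 81.6 TPM), and PSAD1 its lowest (2.40 TPM). LHCB2.1, LHCB3 and GAPA lay below every WT root library, and FBA1 lay within the WT root range. The 9 markers summed to 504 TPM, below the 620 to 636 of WT roots, and their part in the BCA1 and BCA2 levels was not tested. Of the 9 leaf markers, 3 fell in psp1 roots and none rose, and of 7 root markers tested 2 fell and none rose; their part in the other results was not tested.

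**Figure D2:**
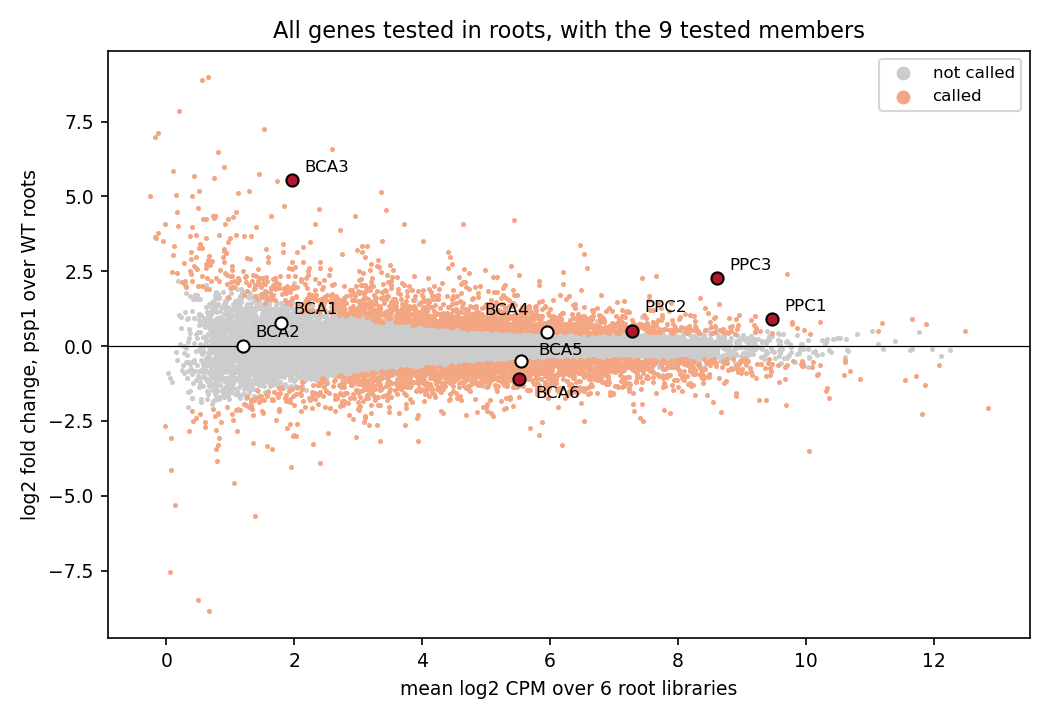
Log2 fold change of psp1 over WT roots (y axis) against mean log2 CPM (x axis) for every gene tested, with called genes coloured and the 9 tested genes named. BCA3 (5.54) and PPC3 (2.27) lie above most genes of similar level, and BCA6 lies below most.

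The aerial part showed none of these changes as calls: 0 of the 9 tested genes passed the edgeR exact test, where 2.43% of the 15928 genes tested did, 1.53% higher and 0.904% lower. The libraries of both groups did not overlap on the same scale for 3 of the 9 (BCA1, PPC1 and PPC3), beside 23.0% of all genes. At an unadjusted p the smallest were 0.00398 for BCA1, 0.00643 for BCA3 and 0.0212 for PPC3, the 3 below 0.05; edgeR's quasi-likelihood test and DESeq2 also called 0. BCA1, the plastid enzyme, read 1387, 1501 and 1472 TPM in WT and 880.2, 1106 and 1170 in psp1, which did not overlap, with a log2 fold change of -0.49 ± 0.16 (SE, n = 3 per group; edgeR adjusted p = 0.0678). BCA2, a cytosolic enzyme, read 1435, 1600 and 1583 in WT and 1775, 1550 and 1817 in psp1, which overlapped. Within a library the BCA1 to BCA2 ratio was 0.930 to 0.967 in WT and 0.496 to 0.714 in psp1. BCA3 read 3.47, 1.69 and 2.35 TPM against 10.3, 3.33 and 6.87, a log2 fold change of 1.42 ± 0.49 (SE, n = 3 per group; edgeR adjusted p = 0.0902); without psp1 aerial replicate 2, the lowest psp1 library, it was called (edgeR adjusted p = 0.00722). PPC3 read 2.79, 3.67 and 3.64 TPM against 2.97, 1.58 and 1.55, a log2 fold change of -0.72 ± 0.29 (SE, n = 3 per group, edgeR adjusted p = 0.189). Its libraries overlapped in TPM, though not on TMM-scaled log2 counts. PPC1, PPC2, BCA4, BCA5 and BCA6 had log2 fold changes between -0.37 and 0.27. The summed levels were 3384 ± 128 and 3116 ± 201 TPM for BCA and 198 ± 7.51 and 216 ± 11.2 for PPC (SD, n = 3 per group, WT then psp1).

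The promoters of BCA1 and BCA2, the pair that carries most of the aerial BCA signal, are printed because they share 1 run of 17 bases, shown in capitals. It was picked as the longest run shared by any pair within either family. Of 27437 promoters of this length only 2 hold it, which are these 2. The count describes a run so chosen and tests nothing. The window runs from 250 bases before the annotated gene start to 30 after it (RefSeq, TAIR10.1), and the run begins 31 bases before the start in BCA1 and at base 12 of the gene in BCA2. BCA1 is read on the minus strand at chr3:198635-198914, and BCA2 on the plus strand at chr5:4757606-4757885.
BCA1: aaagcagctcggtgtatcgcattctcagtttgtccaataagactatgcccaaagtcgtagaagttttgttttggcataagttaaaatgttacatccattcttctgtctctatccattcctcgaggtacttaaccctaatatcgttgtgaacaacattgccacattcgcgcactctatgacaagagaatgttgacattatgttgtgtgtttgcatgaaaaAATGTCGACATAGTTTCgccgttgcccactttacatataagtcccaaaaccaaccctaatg
BCA2: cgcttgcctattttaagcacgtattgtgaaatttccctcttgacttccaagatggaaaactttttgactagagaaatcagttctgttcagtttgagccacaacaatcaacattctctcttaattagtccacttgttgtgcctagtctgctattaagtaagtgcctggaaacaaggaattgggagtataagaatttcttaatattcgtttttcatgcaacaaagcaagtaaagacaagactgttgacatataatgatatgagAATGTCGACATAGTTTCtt

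**Figure D3:**
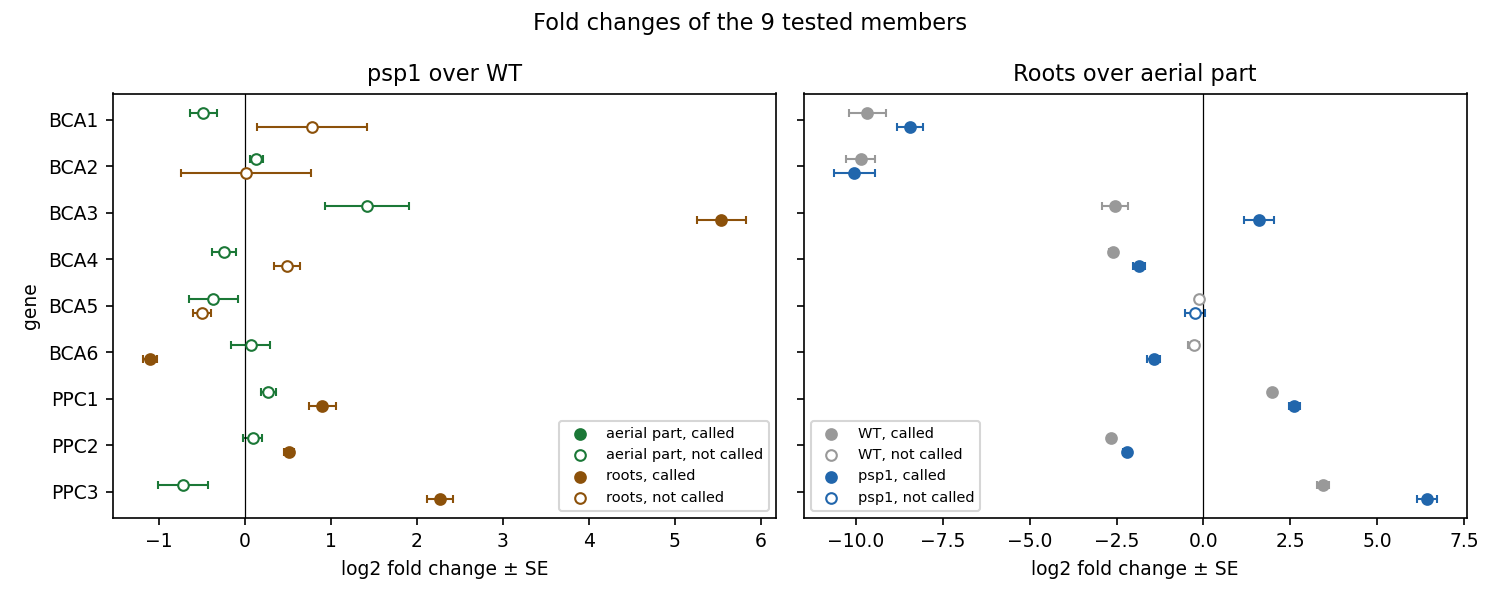
Log2 fold change ± SE (x axis) of the 9 tested genes (y axis), psp1 over WT on the left and roots over aerial part on the right; filled points were called, open points were not. In roots BCA3 and PPC3 reach 5.54 and 2.27, while no aerial point is filled.

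Whether the genotype effect differed between organs was tested over all 12 libraries with edgeR's quasi-likelihood test. Of the 9 genes 2 were called, against 1.68% of 18759 genes, 0.816% higher and 0.864% lower. PPC3 had an interaction of 3.05 ± 0.35 on the log2 scale (SE, 3 libraries per group; edgeR adjusted p = 4.30e-06), and BCA3 of 4.18 ± 0.58 (edgeR adjusted p = 0.00105), both positive in roots relative to the aerial part. BCA6 (-1.08 ± 0.26, edgeR adjusted p = 0.0165), BCA4 (0.83 ± 0.21, edgeR adjusted p = 0.0234) and PPC1 (0.72 ± 0.18, edgeR adjusted p = 0.0334) were not called.

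Between organs, PPC1 and PPC3 were higher in WT roots, and PPC2, BCA1, BCA2, BCA3 and BCA4 were higher in the WT aerial part. In WT, 7 of the 9 genes were called between roots and aerial part, 2 higher in roots and 5 lower, where 64.4% of all genes tested were called, 33.6% higher and 30.8% lower. The libraries of both organs did not overlap for 7 of the 9, beside 74.1% of all genes, so both shares are near those of all genes. BCA1 and BCA2 had log2 fold changes of -9.67 ± 0.53 and -9.86 ± 0.42 (SE, n = 3 per group), with edgeR p-values too small for the software to represent. Their root levels were 0.0626% to 0.257% and 0.0716% to 0.223% of the WT aerial mean, while the 9 leaf markers ranged from 0.0427% for the lowest RBCS2B library to 5.67% for the highest LHCB3 library. BCA4, PPC2 and BCA3 were lower in WT roots, with log2 fold changes of -2.61, -2.65 and -2.54. PPC1 and PPC3 were higher in WT roots by 1.97 ± 0.06 and 3.44 ± 0.18 (SE, n = 3 per group; edgeR adjusted p = 1.51e-59 and 4.30e-85). BCA5 and BCA6 were not called (-0.14 and -0.28), and the TPM scale gives both a positive sign.

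In psp1 plants, 8 of the 9 genes were called between organs, 3 higher in roots and 5 lower, where 49.7% of all genes tested were, 25.2% higher and 24.5% lower. The libraries of both organs did not overlap for 8 of the 9, beside 63.2% of all genes. BCA3 changed direction: it was higher in roots by 1.59 ± 0.43 (SE, n = 3 per group; edgeR adjusted p = 8.26e-05), while in WT it was lower. PPC3 was higher in psp1 roots by 6.43 ± 0.28 and PPC1 by 2.62 ± 0.17, beside 3.44 and 1.97 in WT. BCA6, not called in WT, was lower in psp1 roots by a log2 fold change of -1.43 ± 0.19, a call for BCA6 that was lost on log2(TPM + 1) (limma adjusted p = 0.0158). Both comparisons of genotypes and both comparisons of organs use the same 12 libraries, so they are not independent of each other.

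Each gene's groups can be ordered by mean TPM. For BCA3 the order was psp1 roots, psp1 aerial part, WT aerial part and WT roots, at 33.4, 6.82, 2.50 and 0.600, and the ranges of the middle 2 overlap. PPC3 went from psp1 roots (289) to WT roots (51.9), WT aerial part (3.37) and psp1 aerial part (2.03), where the last 2 overlap. PPC1 went from psp1 roots (330.0) to WT roots (153), psp1 aerial part (33.6) and WT aerial part (27.4), with no overlap between neighbours. For PPC2 the psp1 and WT aerial parts (181 and 167) overlap, and psp1 roots (62.5) and WT roots (38.1) follow below without overlap. BCA6 had overlapping ranges in WT roots (77.5), psp1 aerial part (70.4) and WT aerial part (66.2), with psp1 roots (41.7) below them all. BCA1 was higher in the WT than in the psp1 aerial part (1453 and 1052) without overlap, and its psp1 and WT root ranges (4.94 and 2.46) overlap. BCA2 overlapped between genotypes in the aerial part (1714 in psp1 and 1539 in WT) and in roots (2.69 and 2.27). BCA4 overlapped between genotypes in the aerial part (275 in WT and 236 in psp1) and did not in roots (104 in psp1 and 64.3 in WT). For BCA5, WT roots (61.7) lay above psp1 roots (50.3) without overlap, and psp1 roots overlapped the WT aerial part (47.6), which overlapped the psp1 aerial part (37.3).

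**Figure D4:**
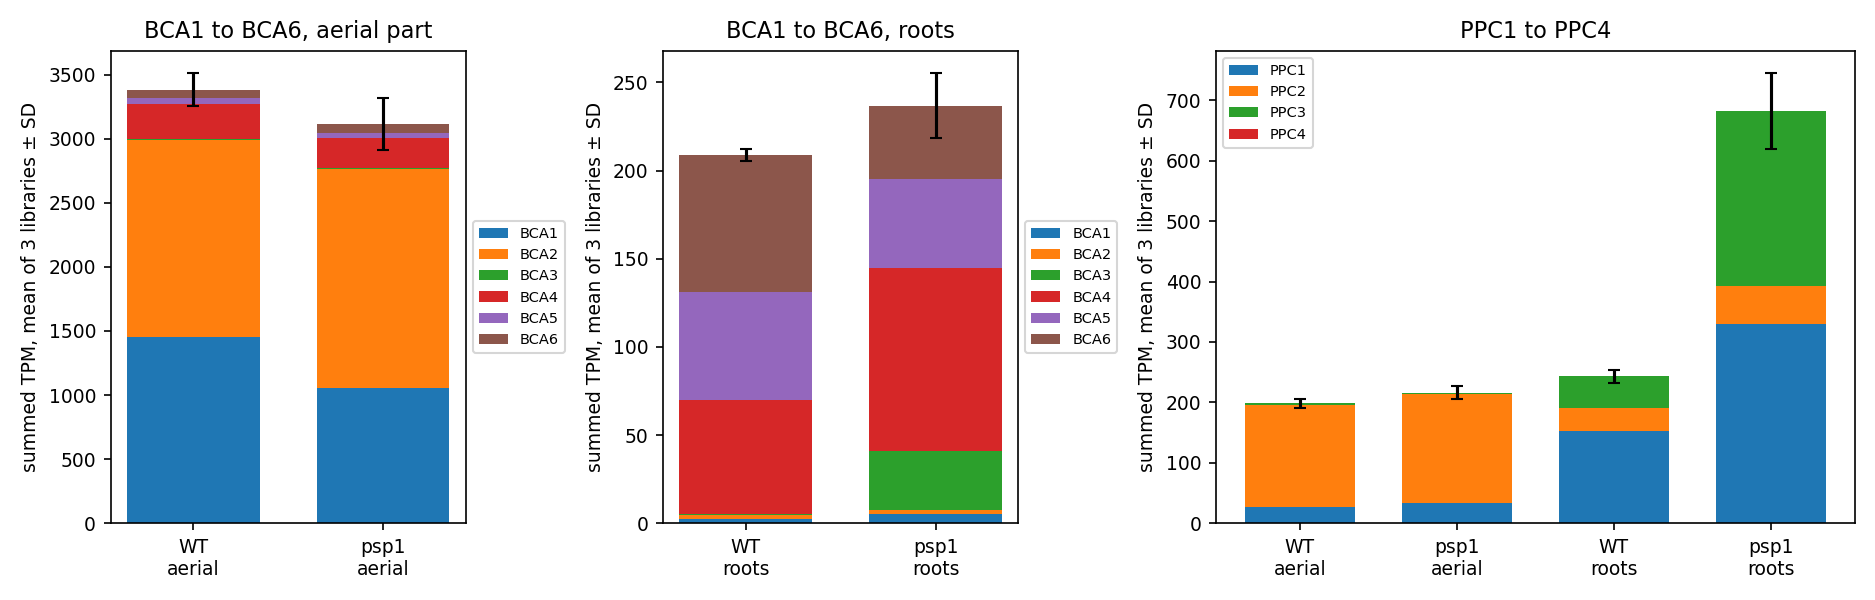
Summed TPM (y axis, from 0) of BCA1 to BCA6, by organ, and of PPC1 to PPC4 in all groups, as the mean of 3 libraries ± SD of the sum, stacked by gene. In roots BCA3 is 0.289% of the BCA sum in WT and 14.1% in psp1, and PPC3 21.3% and 42.6% of the PPC sum.

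PPC4 is best given as counts. It had 0 in all 6 aerial libraries, 5, 4 and 3 in WT roots and 13, 13 and 2 in psp1 roots. With no filter on low counts PPC4 could be tested. Calls between organs were then 8 of the 10 genes in WT and 9 in psp1, beside 7 and 8 in the main fit. BCA5 and BCA6 in WT, and BCA5 in psp1, were called under no alternative, so PPC4 was among the called genes. With 3 counts per group as the floor of the aerial groups and root counts as observed, PPC4's level relative to the library total was at least 3.76-fold higher in WT roots. In psp1 roots it was at least 8.22-fold higher. The psp1 root libraries, 0.666, 0.815 and 0.142 TPM, overlap the WT root libraries, 0.189, 0.124 and 0.0885, through psp1 root replicate 3 alone. With no filter and all libraries kept, 5 of the 10 genes were called between genotypes in roots, as in the main fit, and PPC4 was not among them. Without psp1 root replicate 3, a library left out here because the overlap rested on it, 6 of the 10 genes were called between genotypes in roots. BCA1, BCA2 and BCA5 were called under no alternative there, and BCA4 only without psp1 root replicate 2, so PPC4 was among the 6. The floors cover counting error of the aerial zeros only, and not that of the 12 and 28 root counts, so these folds are not full lower bounds.

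The PEP carboxylase kinases were measured as the enzymes that act on PPC1 to PPC3. PPCK2 read 6.89, 3.25 and 4.69 TPM in WT roots and 14.9, 17.1 and 23.6 in psp1 roots, with no overlap, and rose by a log2 fold change of 1.70 ± 0.36 (SE, n = 3 per group; edgeR exact test, adjusted p = 1.96e-05). PPCK1 read 44.0, 35.3 and 36.0 against 56.2, 60.4 and 78.5, also without overlap, and was not called (0.55 ± 0.20, edgeR adjusted p = 0.0225). In the aerial part both stayed below the filter on low counts, at no more than 14 counts a library. The related kinases PEPKR1 and PEPKR2 were not called in either organ.

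**Figure D5:**
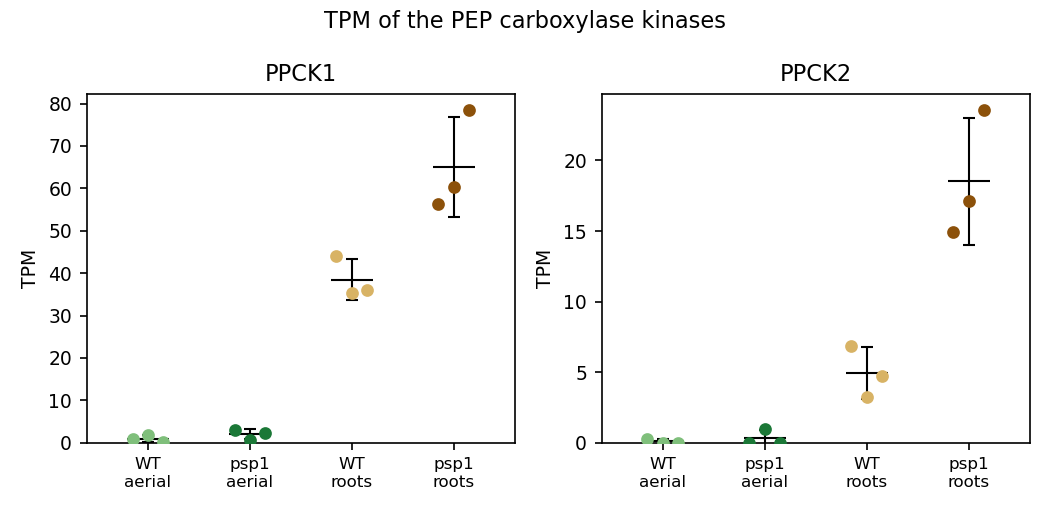
TPM (y axis, linear from 0) of the PEP carboxylase kinases PPCK1 and PPCK2 in the 4 groups; points are libraries, bars the mean ± SD of 3. In psp1 roots PPCK2 reads 14.9 to 23.6, above the 3.25 to 6.89 of WT roots.

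The lists below are read beside the all-gene shares of calls, 8.72% higher and 9.10% lower in roots, and 1.53% higher and 0.904% lower in the aerial part. Of enzymes around PEP, oxaloacetate and malate, 3 of 17 tested rose in roots and 2 fell, with a median log2 fold change of 0.25 beside 0.01 over all genes. PMDH1, a peroxisomal malate dehydrogenase, rose by 0.66 ± 0.08 (edgeR adjusted p = 2.14e-05), and PCK2, a PEP carboxykinase, had a log2 fold change of -1.75 ± 0.06 (edgeR adjusted p = 5.21e-18). Of malate and citrate transporters, 4 of 9 rose in roots and none fell, with a median of 0.64: DIC1, a mitochondrial dicarboxylate carrier, by 2.04 ± 0.19 (edgeR adjusted p = 4.17e-27) and ALMT1, a malate channel of the root, by 1.02 ± 0.13 (edgeR adjusted p = 7.16e-10), with ALMT9 and FRD3. Among 5 tested genes of carbon dioxide signalling 2 fell in roots, PIP2;1, an aquaporin, by a log2 fold change of -0.62 ± 0.03 (edgeR adjusted p = 1.51e-05) and CRSP, a subtilisin-like protease, of -1.07 ± 0.43 (edgeR adjusted p = 0.000513). The CRSP call was lost under 4 of 13 alternatives and that of PIP2;1 under 1. Of 13 alpha and gamma carbonic anhydrases and gamma-like proteins, 5 could be tested in roots, all of the gamma group, and 6 in the aerial part, those 5 and the alpha enzyme ACA1; none was called. In the aerial part NADP-ME2 and PPDK (2 of 16 tested), PIP2;1 (1 of 8, lower) and DIC1 (1 of 8) were called, and each of the 4 calls was lost under at least 6 of 13 alternatives.

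The genes whose log2(CPM + 1) followed BCA2 most closely over the 12 libraries, of 13052 compared, were HCF136, a photosystem assembly factor, RCA, which encodes rubisco activase, and AT1G61300, with Pearson's r of 0.9983, 0.9982 and 0.998. For PPC1 they were FAB1C, BCS1 and AT4G29700, with 0.997, 0.9961 and 0.9961. All these points share the libraries and the contrast of the organs, and the values are a description.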

How the data were processed

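Single-end 75 nt SOLiD 5500XL reads of poly(A)-enriched RNA were assigned by the authors to the TAIR10 transcriptome with kallisto 0.43.0 (fragment length 200, SD 30), per the labels' protocols, which also name R 3.3.2 and edgeR in classic mode at 1%. The deposited tables give estimated counts (not normalized, 3.62% to 6.18% not whole at a tolerance of 0.001) and TPM (scaled by length and library sum) per target. Estimated counts were rounded. Targets hold coding sequence, so reads of untranslated regions alone were not counted, and no strand rule is stated in the sources used here.

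The 5 comparisons were tested in R 4.3.3: edgeR 4.0.16 exact tests (TMM, default low-count filter, Benjamini-Hochberg, adjusted p under 0.01) on the 6 libraries of each pair of groups, and an edgeR quasi-likelihood interaction over 12. SE came from the spread of log2 CPM (prior count 2) and not from the fit that gave the fold change. For genes with low counts in a group it can understate the error, also for the interaction. Replicates are independent biological samples per the labels. Alternatives used DESeq2 1.42.0, limma 3.58.1 on log2(TPM + 1), RLE factors, no filter, equal depth, a replicate block and each library left out. Scripts were tested on simulated data. Identities, promoters and coordinates come from the TAIR10.1 RefSeq annotation.

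Named genes are all 10 members, PPCK1, PPCK2, PSP1, up to 2 called genes per context list and genotype comparison by smallest p, and the 3 genes most correlated with the most abundant member of each family (mean of at least 50 counts). ALMT9, FRD3, PEPKR1, PEPKR2 and ACA1 and the leaf markers given by name were named after their values were seen. Members and lists were chosen with earlier results of these data known. Promoters other than those of BCA1 and BCA2 are not reported here.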

Additional observations from a re-analysis of the deposited data

Results flagged for a closer look

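The genotype effect differed between organs, by the edgeR quasi-likelihood interaction over 12 libraries, for 3 of the named genes. For BCA3 the interaction was 4.184 on the log2 scale (edgeR adjusted p = 0.00105): its root fold change was 5.54 and its aerial fold change 1.42, with all 3 psp1 root libraries above all 3 WT root libraries. For PPC3 it was 3.055 (edgeR adjusted p = 4.30e-06), with 2.27 in roots and -0.72 in the aerial part. For PSP1 it was -2.597 (edgeR adjusted p = 9.64e-06), with -0.40 in roots and 2.29 in the aerial part.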

How the results depend on the processing

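Over 13 alternatives in roots, BCA3, PPC3, PPC1 and BCA6 kept direction and call, and the number of the 10 genes called was 4 to 6. The PPC2 call was lost under 2 of them, with the replicate block (edgeR adjusted p = 0.0110) and, as given above, without WT root replicate 1. Between genotypes, same-number correlations were -0.0739 to 0.0508, inside the -0.133 to 0.159 of different numbers. Between organs in WT they were 0.0239 to 0.150, against -0.136 to 0.028 for different numbers. In psp1 they were 0.0209 to 0.0501, against -0.0629 to 0.0517. These values do not settle whether the organs are paired by number, and the main tests use no pairing. The quasi-likelihood test called 21 genes with the block and 31 without in the aerial part (exact test 387), and 1837 and 2232 in roots (exact test 3172). Between organs it called 11414 with the block and 11129 without in WT, and 7027 and 7662 in psp1. Aerial calls were 6 by limma on TPM, and 112 to 710 leaving out 1 library (lowest without WT aerial replicate 1, highest without psp1 aerial replicate 1); of the 9 genes, 0 to 1 were called. Roots gave 1537 calls on TPM. Interaction calls were 315, 825 by DESeq2 and 136 to 374 leaving out 1 library. BCA6 was called under 3 of 18 alternatives: by DESeq2 (adjusted p = 0.000703), with RLE factors (edgeR adjusted p = 0.00921) and without psp1 aerial replicate 2. TPM moved the median log2 fold change of all genes to 0.19 in roots, 0.48 between organs in WT and 0.68 in psp1, and higher genes to 75.08%, 71.13% and 73.35% of calls from 48.93%, 52.13% and 50.64%. For the interaction they were 48.57%, 78.16% on TPM and 37.93% with RLE; aerial calls were 62.79% higher, and 100% of the 6 on TPM. Signs changed on TPM for BCA5 between organs (0.37 in WT, 0.46 in psp1), BCA6 between organs in WT (0.23) and the BCA5 interaction (0.096). BCA2 in roots became -0.012 by the quasi-likelihood test, -0.0018 with no filter and -0.094 with the block. Leaving out 1 library gave ranges that include 0 for BCA2 in roots (-1.01 to 0.45), BCA6 (-0.15 to 0.20) and PMDH1 (-0.17 to 0.0103) in the aerial part, and the interactions of BCA5 (-0.26 to 0.13) and BCA2 (-1.16 to 0.21). The cause was not tested. Alternatives for genes other than the 10 and PSP1 were kept for genotype comparisons alone, a limit set after seeing values: PPCK1, PPCK2, PCK2, NADP-ME2 and ALMT1 had changed sign in the interaction and PIP2;1 between organs, and no such result is reported. Low counts limit BCA3 in WT roots, BCA1 and BCA2 in roots, and PPC4.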
